A study of Rattus norvegicus with 12 samples.

Results

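The 35 genes described here carry the cellular response to low oxygen and the breakdown of glucose. They comprise 16 hypoxia-inducible factor (HIF) genes, oxygen sensors and HIF targets outside glycolysis, and 19 genes of glucose uptake, glycolysis, lactate export and the fate of pyruvate. They were chosen by function, with earlier results of these data known. The array has 31099 probe sets and measures 14218 genes with a probe set of exactly 1 gene symbol, and 1 of the 35, Pkm, is not among these. A gene with several such probe sets is represented by its brightest one, by the mean of all 12 arrays.

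RNA came from homogenized articular cartilage of rat knees, and the values are log2 intensities of 1-colour Affymetrix arrays, normalized together by the authors. The study set knees with osteoarthritis-inducing surgery (OA) beside sham-operated knees. Cartilage was taken 2 or 8 weeks after the operation, which gives 4 groups of 3 arrays. The surgical procedure, the strain, age and sex of the rats, and whether the 3 arrays of a group came from separate animals are not given in the sources used here. The p-values therefore measure the spread between arrays, which may be technical, and 3 arrays per group limit the precision of every value.

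Articular cartilage has no blood vessels, and chondrocytes live in low oxygen and draw most of their energy from glycolysis. In normal oxygen, prolyl hydroxylases (the Egln genes) mark the HIF alpha subunits for destruction. When oxygen falls, HIF1A and EPAS1 (HIF2A) persist, bind short DNA motifs near their target genes and raise the transcription of genes for oxygen supply, glycolysis, mitochondrial turnover and of the Egln genes themselves. HIF alpha is controlled mainly at the protein level, so its transcript is not a measure of its activity, and the arrays measure no protein.

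Of the 35 genes, 32 passed the filter for low values (a log2 value over 4 in at least 3 of 12 arrays) and were tested together with all 15934 probe sets that passed. Hk2, which encodes a hexokinase, stayed between 1.89 and 1.99 in all arrays, under the filter. The probe sets with Gapdh as their only symbol are controls, which were not tested. Its 3′ probe set had group means of 15.09 ± 0.02 (SD, n = 3) in sham and 15.14 ± 0.13 in OA at 2 weeks, and of 15.23 ± 0.01 and 15.23 ± 0.06 at 8 weeks. The other Gapdh probe sets differed from this at 8 weeks. The 5′ one was at 13.90 ± 0.06 in sham and 14.09 ± 0.17 in OA, and the middle one at 14.77 ± 0.08 and 14.93 ± 0.14. In both, every OA array lay above every sham array of that time. Pkm, the pyruvate kinase of most tissues, shares its probe set with a second gene symbol and has no value here.

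Chondrocyte genes were bright in every array, the mean of 9 tested of 11 lying between 13.71 and 14.36. Of these, 2 (Col9a1 and Col9a2) were called lower in OA at 8 weeks, beside 1.95% of all probe sets. Skeletal muscle genes (19 of 26 tested) averaged 4.69 to 7.31 at 2 weeks, 5.61 to 10.26 in sham and 9.56 to 14.40 in OA at 8 weeks. OA array 1 at 8 weeks held the 14.40 and also stood apart in the control transcripts, with a Gapdh 3′ minus 5′ difference of 0.89 against 1.24 to 1.47 elsewhere. At 8 weeks the mean levels of macrophage, osteoclast, osteoblast and erythroid genes lay lower in OA than in every sham array. They ranged from 6.65 to 6.79 against 7.68 to 10.35, from 9.48 to 10.82 against 12.53 to 12.87, from 10.03 to 10.74 against 11.53 to 11.96, and from 6.42 to 7.16 against 7.47 to 8.44. Endothelial genes also lay lower, from 4.46 to 5.49 in OA and from 5.56 to 7.15 in sham. The endothelial mean rests on 5 of 10 genes and the erythroid mean on 3 of 7. Called lower in OA at 8 weeks were 5 of 5 tested osteoclast genes, 4 of 14 macrophage genes and 3 of 7 osteoblast genes. In the endothelial, erythroid and muscle lists 0 genes were called in that comparison. In bulk RNA, fewer cells of a type and less RNA per cell cannot be told apart, and the part of these tissues in the results below was not tested except where a fit is given.

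At 8 weeks, 5 of the 32 tested genes were higher in OA than in sham and none was lower, by limma's moderated test with a Benjamini-Hochberg adjusted p under 0.05 over all probe sets. They were Egln3, Ndrg1, Ero1a, Mxi1 and Vegfa, with differences between 0.57 and 1.46 on the log2 scale. All 5 belong to the 16 HIF genes, sensors and targets outside glycolysis, and 0 of the 16 tested genes of glucose transport, glycolysis and pyruvate passed, of which 3 were higher and 1 lower at an unadjusted p under 0.05. That threshold was passed by 3423 of all 15934 probe sets in either direction. The 5 made up 15.6% of the members tested, against 1.51% of all probe sets called higher (241) and 1.95% called lower (311). The median difference was 0.11 over the 32 genes and 0.01 over all probe sets.

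At 2 weeks, 0 of the 32 genes passed by the same limma test, none of them even at an unadjusted p under 0.05, beside 0% of all probe sets called higher and 0% called lower (269 of 15934 at an unadjusted p under 0.05). The median difference was -0.06 over the members and -0.01 over all probe sets. The 3 OA arrays lay above all 3 sham arrays in 0 members and below them in 1, Slc2a3, against 1.91% and 3.46% of all probe sets. At 8 weeks this held for 9 members above and 1 below, against 12.3% and 12.8%. Of the 32 genes, 15 were lower in OA at 2 weeks and higher at 8 weeks by their means, and 3 went the other way. The sign was the same at both times in the rest, above 0 in 6 and below 0 in 8. Of all probe sets, 45.0% were above 0 at 2 weeks and 51.1% at 8 weeks, and their changes of sign were not counted.

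**Figure D1:**
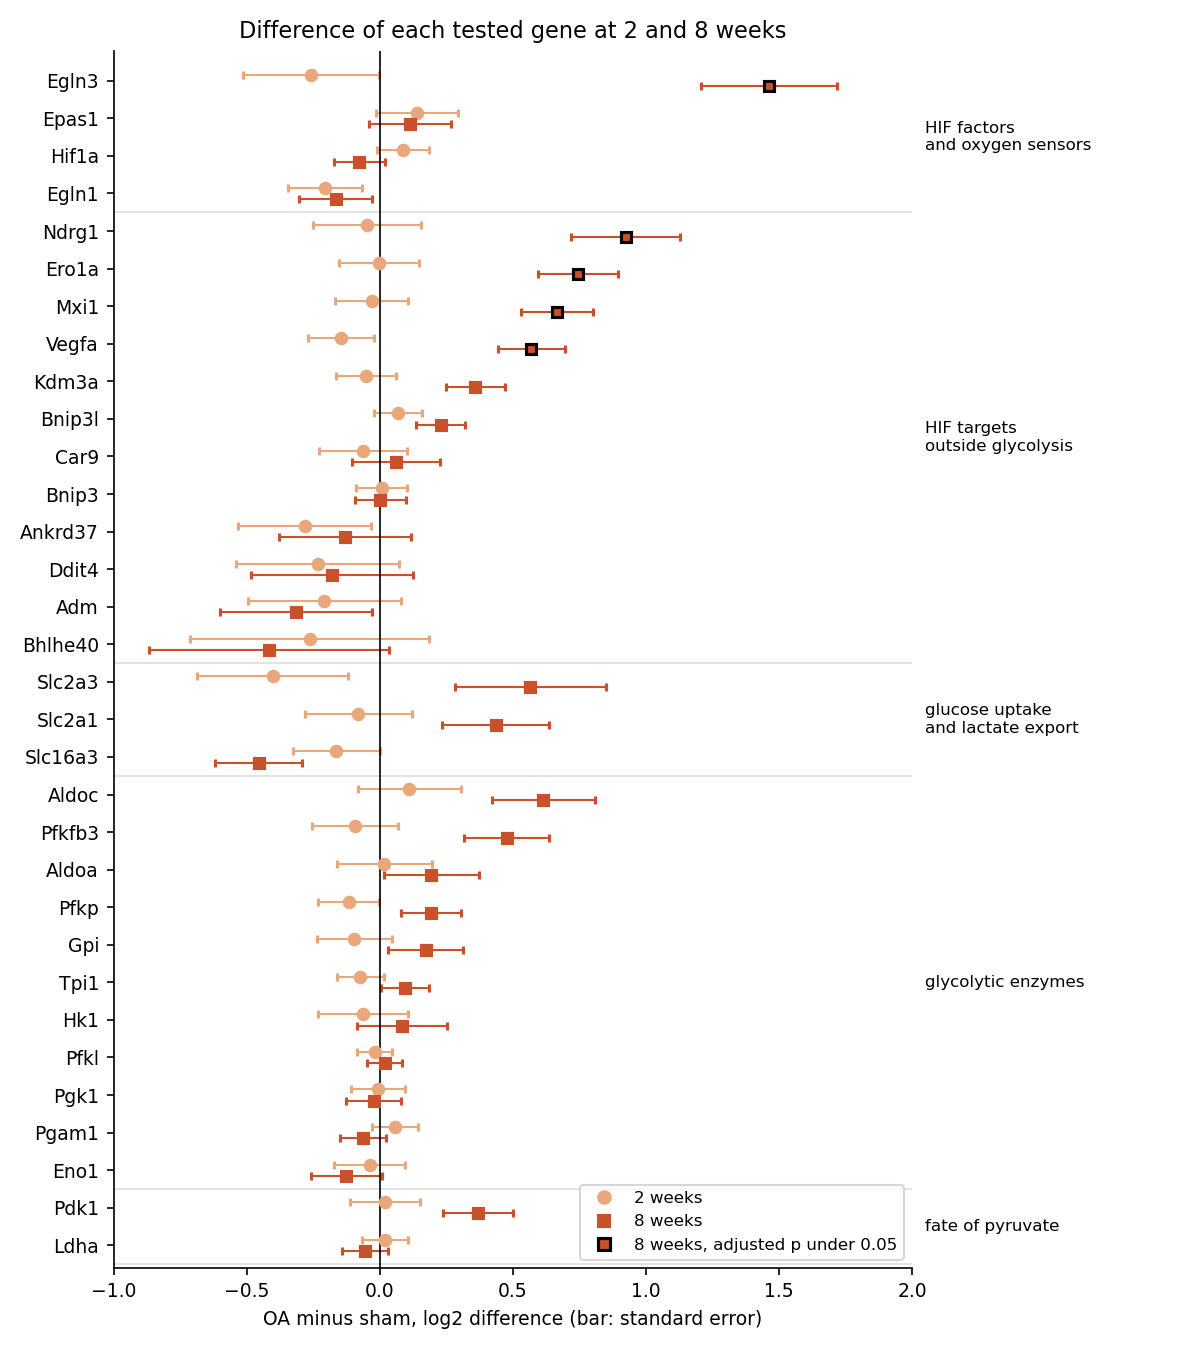
The horizontal axis is the OA minus sham difference in log2 units for each of the 32 tested genes, grouped by role, with circles for 2 weeks, squares for 8 weeks and bars for the standard error. The 5 squares outlined in black passed at 8 weeks, at 0.57 (Vegfa) to 1.46 (Egln3), and all lie among the HIF genes, sensors and targets in the upper groups.

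HIF binds the core motifs ACGTG and GCGTG, which were searched on both strands from 250 bases before to 50 bases after the annotated starts in RefSeq (build GRCr8); a match can overlap another, as in the palindrome that holds ACGTG on both strands. Windows matched 30 of the 35 genes (all but Ero1a, Ndrg1, Bnip3l, Slc2a3 and Pgk1), with 36 starts, and 23 windows (63.9%) held a motif, against 41.6% of all 33469 windows of that length. By part it was 9 of 15 windows of the HIF genes, sensors and targets and 14 of 21 of glucose transport, glycolysis and pyruvate, none of whose tested genes passed at 8 weeks. Among the 5 genes called at 8 weeks, Egln3, Mxi1 and Vegfa had 4 windows, of which 1 held a motif, that of Mxi1. Ldha, which did not pass, held 6, the most of any member. These counts describe letters near the start and say nothing of binding. Motifs outside these windows were not searched, and whether HIF acts on these genes was not tested. The sequences before the start of Mxi1 (chr1:262348392-262348641, plus strand), Egln3 (chr6:77411016-77411265, minus strand) and Ldha (chr1:106507842-106508091, plus strand) are printed below, the last 2 chosen after the counts were seen. Capitals mark motif matches that lie wholly before the start.
Mxi1: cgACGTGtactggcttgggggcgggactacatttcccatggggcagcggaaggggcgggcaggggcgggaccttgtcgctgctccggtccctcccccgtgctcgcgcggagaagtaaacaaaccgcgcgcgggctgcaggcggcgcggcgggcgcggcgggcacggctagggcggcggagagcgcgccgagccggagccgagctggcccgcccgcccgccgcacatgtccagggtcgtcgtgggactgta
Egln3: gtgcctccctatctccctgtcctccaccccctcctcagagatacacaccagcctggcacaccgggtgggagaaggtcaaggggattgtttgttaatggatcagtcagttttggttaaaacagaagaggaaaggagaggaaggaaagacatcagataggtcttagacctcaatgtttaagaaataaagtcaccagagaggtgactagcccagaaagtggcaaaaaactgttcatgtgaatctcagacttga
Ldha: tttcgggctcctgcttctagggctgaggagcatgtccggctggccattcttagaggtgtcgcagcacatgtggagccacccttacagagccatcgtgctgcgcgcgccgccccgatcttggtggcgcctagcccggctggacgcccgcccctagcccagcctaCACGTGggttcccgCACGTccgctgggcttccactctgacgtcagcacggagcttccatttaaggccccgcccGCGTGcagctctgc

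Mxi1 carries its match at bases -248 to -244, far from the start, and the Egln3 stretch holds none. In Ldha 4 matches lie wholly before the start, the nearest at -14 to -10.

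Of the 4 HIF and sensor genes, Egln3 alone passed at 8 weeks. Egln3 encodes an oxygen-sensing prolyl hydroxylase that is itself a HIF target. At 8 weeks OA arrays 1 to 3 had log2 values of 12.32, 12.53 and 12.76, and the sham arrays 10.62, 11.57 and 11.03. The OA and sham arrays did not overlap, and the sham arrays were spread more widely (SD 0.47) than the OA arrays (SD 0.22). The difference was 1.46 ± 0.26 (SE), or 2.76-fold, with a limma adjusted p of 0.0173. At 2 weeks OA was at 10.87, 10.64 and 10.59, and sham at 11.40, 10.84 and 10.62, so that the groups overlapped (-0.26 ± 0.26).

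The transcripts of the HIF alpha subunits did not pass. Hif1a, the subunit for acute low oxygen, was at 15.13, 15.43 and 15.38 in OA and 15.37, 15.48 and 15.33 in sham at 8 weeks. The difference of -0.08 ± 0.10 had a 95% interval of -0.29 to 0.14, whose upper end is below the difference of each of the 5 genes called. Epas1, which encodes HIF2A and is known as a driver of matrix breakdown in chondrocytes, differed by 0.11 ± 0.15 at 8 weeks (-0.23 to 0.46) and by 0.14 ± 0.15 at 2 weeks. Egln1, the main oxygen sensor of most cells, was at 10.58, 10.81 and 11.14 in OA and 10.93, 11.12 and 10.99 in sham at 8 weeks, a difference of -0.17 ± 0.14 with overlapping arrays. At 2 weeks Egln1 had the smallest unadjusted p of all 32 genes, at 10.88, 10.78 and 10.75 in OA and 11.15, 10.87 and 11.01 in sham (-0.21 ± 0.14, limma adjusted p = 0.999961).

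Of the 12 HIF targets outside glycolysis, 4 were higher in OA at 8 weeks. Ndrg1, a stress-response gene used as a marker of hypoxia, was at 13.06, 13.13 and 13.48 in OA and 12.12, 12.47 and 12.31 in sham. Every OA array lay above every sham array, and the difference was 0.92 ± 0.20 or 1.90-fold (limma adjusted p = 0.0414). Ero1a, the oxidase that drives disulfide bond formation in secreted proteins, was at 11.79, 11.99 and 12.15 in OA and 10.97, 11.47 and 11.27 in sham. These groups did not overlap either, and the difference was 0.74 ± 0.15 or 1.68-fold (limma adjusted p = 0.0308). Ero1a has a second, dimmer tested probe set at 6.24 in sham and 6.35 in OA, on which the difference was 0.11 ± 0.19 (limma adjusted p = 0.807).

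Mxi1, a repressor that competes with MYC for its partner MAX, was at 12.39, 12.04 and 12.11 in OA and 11.67, 11.44 and 11.43 in sham at 8 weeks. The groups were apart by 0.67 ± 0.14 or 1.59-fold (limma adjusted p = 0.0325), with OA array 1 the highest. A second probe set of Mxi1, near the floor at 3.92 in sham and 4.10 in OA, gave 0.18 ± 0.12 (limma adjusted p = 0.437). Vegfa, the growth factor that draws blood vessels toward hypoxic tissue, was at 13.30, 13.58 and 13.78 in OA and 12.86, 12.99 and 13.10 in sham. All 3 OA arrays were higher, by 0.57 ± 0.12 or 1.48-fold (limma adjusted p = 0.0388). At 2 weeks Vegfa was at 12.87, 12.81 and 12.70 in OA and 13.02, 12.86 and 12.92 in sham (-0.15 ± 0.12). OA array 1 lay inside the sham range.

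**Figure D2:**
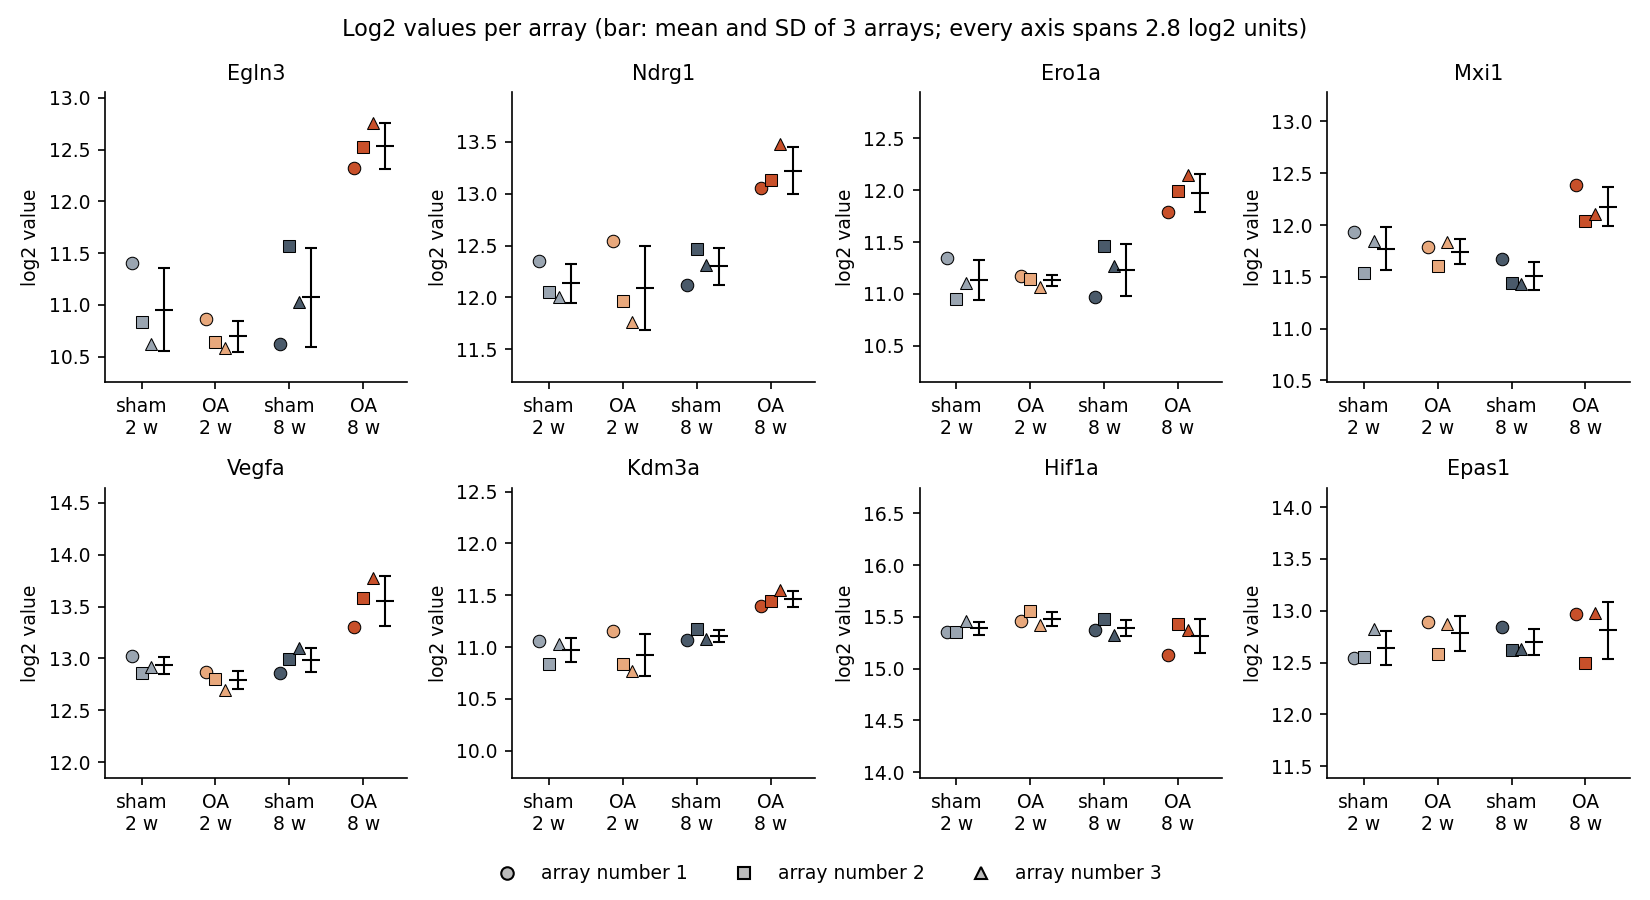
The vertical axes are log2 values of the 12 arrays for 8 genes, each axis spanning the same number of log2 units, with array numbers as symbols and the mean and SD of 3 arrays beside them. In Egln3, Ndrg1, Ero1a, Mxi1, Vegfa and Kdm3a the 3 OA arrays at 8 weeks lie above all 3 sham arrays of that time, while in Hif1a and Epas1 the groups overlap.

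The other 8 targets did not pass. Kdm3a, a histone demethylase induced by HIF, was at 11.40, 11.45 and 11.55 in OA and 11.07, 11.17 and 11.08 in sham at 8 weeks, a difference of 0.36 ± 0.11 without overlap (limma adjusted p = 0.110). Bnip3l, a receptor for the removal of mitochondria, was at 14.11, 14.06 and 14.18 in OA and 13.93, 13.81 and 13.92 in sham (0.23 ± 0.09, limma adjusted p = 0.186). Its other probe set gave 0.26 ± 0.08 (limma adjusted p = 0.109), so both stood in the same direction without passing. Bnip3, a related mitochondrial gene, had a difference of 0.00 ± 0.10 with a 95% interval of -0.21 to 0.22.

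Car9, a carbonic anhydrase at the cell surface that is a standard hypoxia marker, differed by 0.06 ± 0.17 at 8 weeks (95% interval -0.31 to 0.43). Adm, Ankrd37, Ddit4 and Bhlhe40 had lower means in OA at both times and overlapped at both. Their 8-week differences were -0.31 ± 0.29 for Adm (a vasodilator peptide), -0.13 ± 0.25 for Ankrd37, -0.18 ± 0.30 for Ddit4 (an inhibitor of mTOR) and -0.42 ± 0.45 for Bhlhe40 (a transcriptional repressor). These 4 genes varied more among sham arrays than among OA arrays, with an SD of 0.39 to 0.88 in sham and 0.11 to 0.46 in OA at 2 weeks, and of 0.40 to 0.69 in sham and 0.06 to 0.44 in OA at 8 weeks. Bhlhe40 was at 10.47, 9.50 and 8.72 in sham at 2 weeks and at 8.87, 10.25 and 9.64 in sham at 8 weeks. Ddit4 followed the same order, at 12.09, 11.66 and 10.96 and at 10.80, 11.90 and 11.59. The upper ends of the 95% intervals of the 4 genes at 8 weeks lay at 0.33 for Adm, 0.43 for Ankrd37, 0.50 for Ddit4 and 0.59 for Bhlhe40.

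The 3 genes that carry glucose into the cell and lactate out did not pass at either time. Slc2a1 (GLUT1), the basal glucose transporter, was at 12.03, 11.60 and 12.59 in OA and 11.61, 11.67 and 11.63 in sham at 8 weeks. The sham arrays were close together, and OA array 2 lay just below all of them, so that the difference of 0.44 ± 0.20 (limma adjusted p = 0.243) rested on OA arrays 1 and 3. Without OA array 3 it was 0.18, and without OA array 2 it was 0.67. Slc2a3 (GLUT3), a transporter of high affinity, was at 9.37, 8.88 and 9.19 in OA and 7.94, 8.99 and 8.80 in sham at 8 weeks (0.57 ± 0.28, limma adjusted p = 0.285). Without sham array 1, the lowest, the difference was 0.25, and without both number 1 arrays it was 0.14. At 2 weeks its OA arrays, at 8.23, 8.19 and 8.11, all lay below sham, at 9.08, 8.42 and 8.24, a difference of -0.40 ± 0.28 that did not pass (limma adjusted p = 0.999961). Leaving out sham array 1 at 2 weeks brought that difference to -0.15.

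Slc16a3 (MCT4), the lactate exporter of glycolytic cells, was the 1 member with all OA arrays below sham at 8 weeks. It was at 12.79, 12.51 and 13.07 in OA and 13.38, 13.17 and 13.17 in sham. The difference of -0.46 ± 0.16 did not pass (limma adjusted p = 0.151), and its 95% interval ran from -0.82 to -0.09. At 2 weeks the difference was -0.16 ± 0.16 with overlapping arrays.

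Of the 14 genes of the glycolytic enzymes, 11 were tested and none passed in OA against sham. The smallest p at 8 weeks was that of Aldoc, an aldolase isoform, at 11.65, 11.22 and 11.26 in OA and 10.91, 10.64 and 10.74 in sham. Its OA arrays were all higher, by 0.61 ± 0.19 (limma adjusted p = 0.112). With the muscle level as a covariate the difference was 0.29 ± 0.22 (limma adjusted p = 0.684). Pfkfb3, which makes the allosteric activator of phosphofructokinase and is a HIF target, was at 13.16, 12.62 and 12.90 in OA and 12.14, 12.63 and 12.48 in sham. OA array 2 fell just inside the sham range, and the difference was 0.48 ± 0.16 (limma adjusted p = 0.134).

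The other 9 enzymes tested lay between -0.13 (Eno1) and 0.19 (Aldoa and Pfkp) at 8 weeks. Aldoa, the main aldolase of muscle, was at 14.43 in OA array 1 and at 13.62 to 13.79 in the other 5 arrays of that time. Pfkp, the platelet phosphofructokinase, was at 14.24, 13.94 and 14.15 in OA and 14.03, 13.87 and 13.86 in sham, and it had the smallest p of the enzymes at 2 weeks (-0.12 ± 0.11). The enzymes of the lower pathway were close to equal in OA and sham. Pgk1 differed by -0.02 ± 0.10 (95% interval -0.25 to 0.20), Pgam1 by -0.06 ± 0.09 (-0.26 to 0.13), Eno1 by -0.13 ± 0.13 (-0.42 to 0.17) and Tpi1 by 0.10 ± 0.09 (-0.10 to 0.30). Another bright Pgk1 probe set gave 0.07 ± 0.11 (limma adjusted p = 0.769), with all OA arrays above sham. A dim one gave 0.15 ± 0.18 (limma adjusted p = 0.669), so the Pgk1 probe sets disagreed in sign. Gpi differed by 0.17 ± 0.14, Hk1 by 0.08 ± 0.17 and Pfkl by 0.02 ± 0.07, with overlap in each.

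Ldha and Pdk1 act on pyruvate. Ldha, which reduces pyruvate to lactate, was at 14.77, 14.84 and 14.89 in OA and 14.92, 14.87 and 14.87 in sham at 8 weeks, a difference of -0.06 ± 0.09 (95% interval -0.25 to 0.14). At 2 weeks it differed by 0.02 ± 0.09. Pdk1, the kinase that keeps pyruvate out of the mitochondria, was at 11.92, 11.68 and 12.02 in OA and 11.56, 11.55 and 11.40 in sham at 8 weeks. Its OA arrays were all higher, by 0.37 ± 0.13 (limma adjusted p = 0.151). A second Pdk1 probe set of similar brightness gave -0.04 ± 0.15 (limma adjusted p = 0.911), so the probe sets of this gene disagreed in sign.

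**Figure D3:**
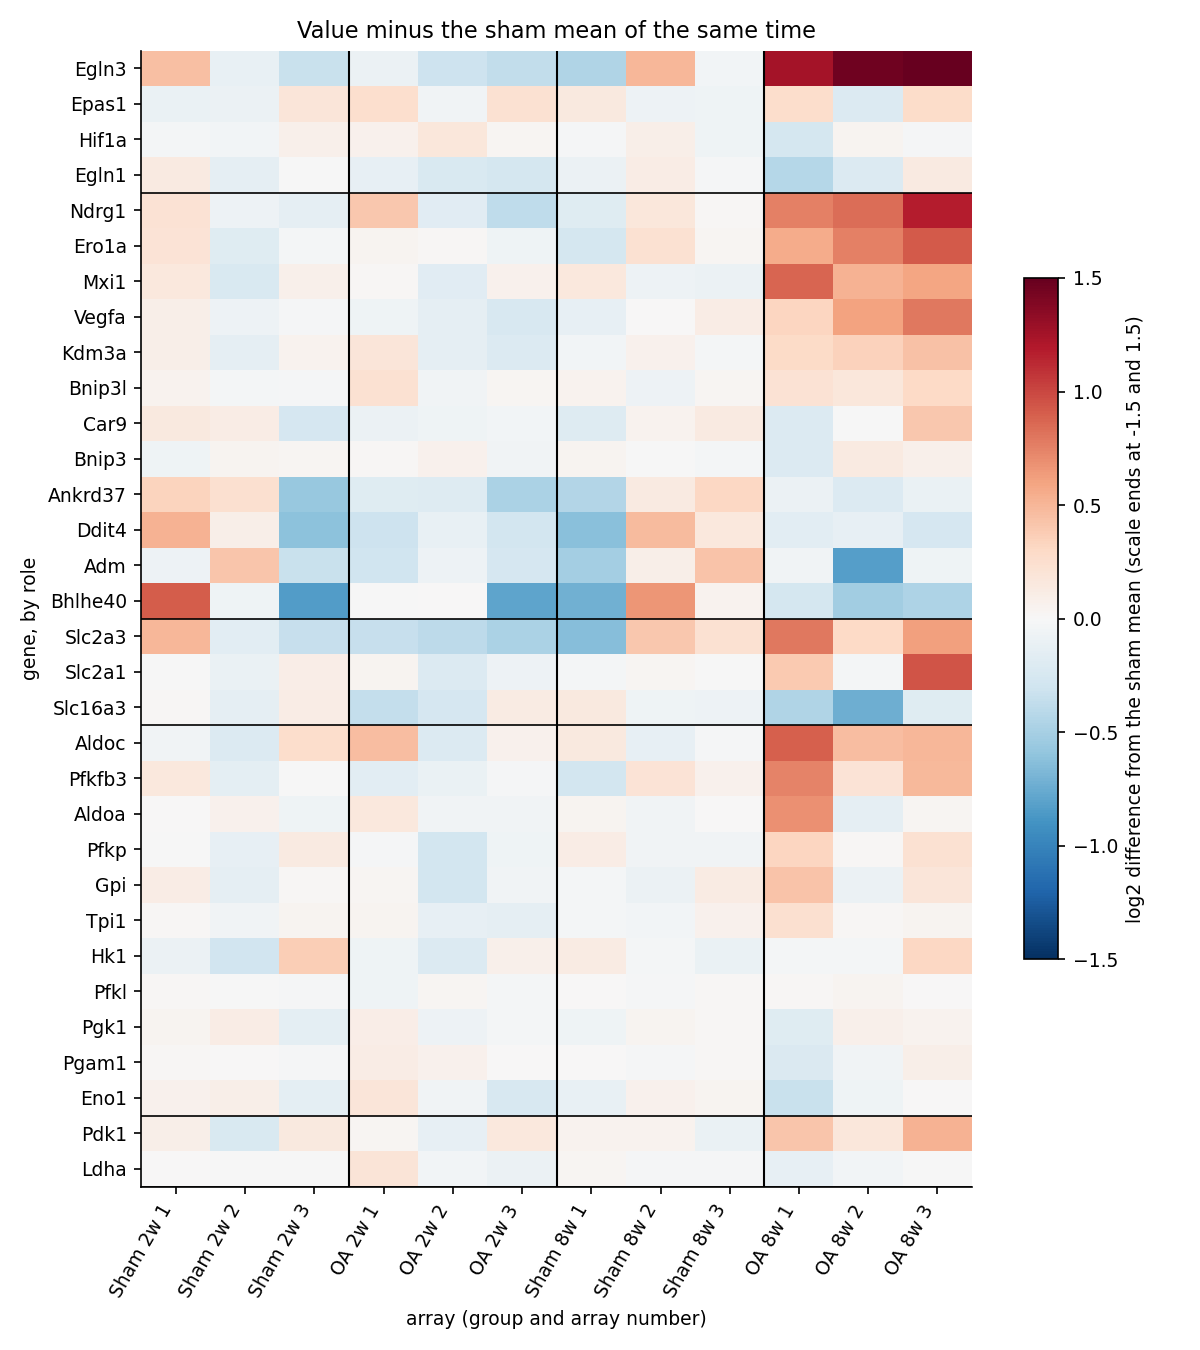
Each row is a tested gene grouped by role, each column an array, and the colour is the log2 value minus the sham mean of the same time, on a scale that ends at -1.5 and 1.5. The 3 OA columns at 8 weeks are red in Egln3, Ndrg1, Ero1a, Mxi1, Vegfa and Kdm3a, while Hif1a, Pgk1, Pgam1, Eno1 and Ldha stay pale.

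The 3 OA arrays at 8 weeks did not agree in which genes stood highest. Array 1, with the muscle level of 14.40, was the highest of the 3 in 11 of 32 genes, among them Mxi1, Slc2a3, Pfkfb3, Aldoa, Aldoc, Gpi and Tpi1. It was the lowest of the 3 in 14, among them Egln3, Vegfa, Ero1a, Ndrg1 and Kdm3a, and array 3, with the muscle level of 9.56, was the highest in 16. In 24 of the 32 genes the SD at 8 weeks was larger in OA than in sham. Without OA array 1, the difference was 1.57 in Egln3, 0.84 in Ero1a and 0.70 in Vegfa, all still called, and 1.01 in Ndrg1 (limma adjusted p = 0.0596) and 0.56 in Mxi1 (limma adjusted p = 0.0739), which were not. With the muscle level as a covariate, Egln3 (1.90 ± 0.29) and Ero1a (1.05 ± 0.15) were called while Ndrg1 (1.04 ± 0.28), Vegfa (0.77 ± 0.15) and Mxi1 (0.50 ± 0.18) were not. In that fit 4 of the 5 differences were larger than without the covariate, that of Mxi1 was smaller, and the calls over all probe sets fell to 20 higher and 20 lower. The muscle level was centred within each time and given a single slope over both times. At 8 weeks it ran from 9.56 to 14.40 in OA and from 5.61 to 10.26 in sham, so the fit cannot fully separate muscle level from OA.

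**Figure D4:**
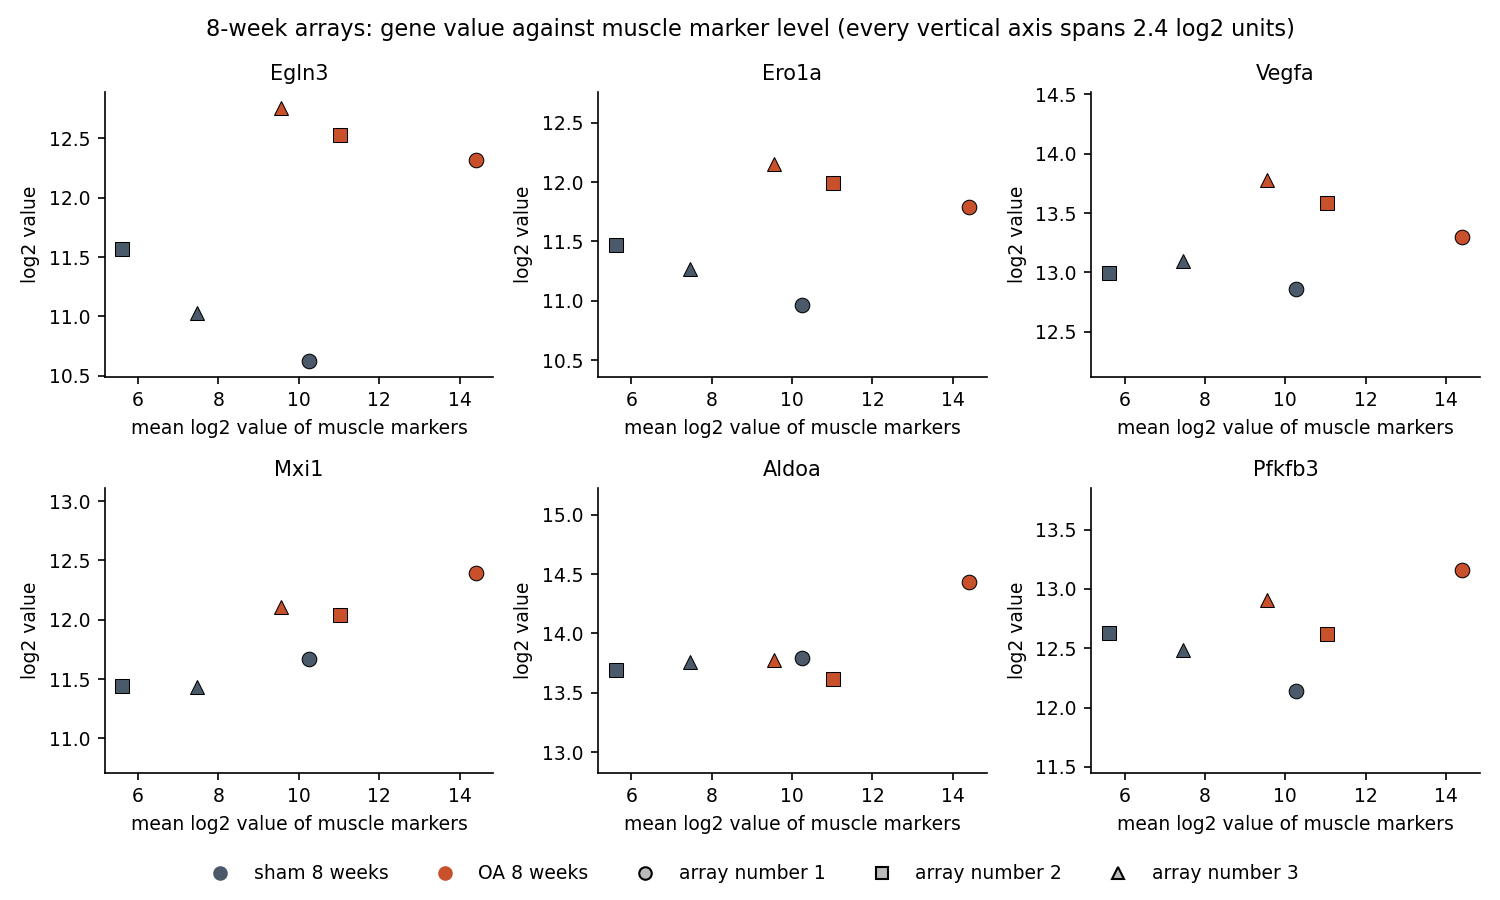
The horizontal axes are the mean log2 value of the 19 tested skeletal muscle genes in each 8-week array and the vertical axes the log2 value of the gene. In Egln3, Ero1a and Vegfa OA array 1, at a muscle level of 14.40, is the lowest of the 3 OA arrays and still above all sham arrays, while in Aldoa it stands alone at 14.43.

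The 5 calls at 8 weeks depended on single arrays, more in their p than in their size. The count was 0 without OA array 2 or sham array 3 of 8 weeks (13 and 9 higher at an unadjusted p under 0.05), 2 without OA array 3 or sham array 2 of 8 weeks, 4 without OA array 3 of 2 weeks and 3 without any other array. Over all probe sets, 119 were called higher and 111 lower without OA array 2 of 8 weeks, and 47 and 63 without sham array 3. They were 194 and 353 without OA array 3 and 56 and 76 without sham array 2, beside 241 and 311 in the main fit. Without OA array 2 the differences were 1.47 for Egln3, 0.97 for Ndrg1, 0.74 for Ero1a, 0.74 for Mxi1 and 0.56 for Vegfa, and without sham array 3 they were 1.44, 0.93, 0.76, 0.62 and 0.63. Egln3 kept its call in 10 of these 12 fits, the exceptions being OA array 2 (adjusted p = 0.0559) and sham array 3 (0.0748). Ero1a kept it in 9, all but OA arrays 2 and 3 and sham array 3, and Mxi1 in 7, all but OA arrays 1 and 2 and sham arrays 2 and 3 of 8 weeks and OA array 1 of 2 weeks. Ndrg1 was called in 2 of the 12, without OA array 1 or 3 of 2 weeks, and Vegfa in 1, without OA array 1 of 8 weeks. In a fit of the 6 arrays of 8 weeks alone the count was 0 by limma (9 higher and 1 lower at an unadjusted p under 0.05), and 14 and 13 of all probe sets were called. Arrays of the same number were correlated within each time, and with that number as a block within each time the same 5 genes were called while the calls over all probe sets rose to 491 higher and 546 lower.

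Whether the OA effect differed between the times was tested with the interaction, the 8-week difference minus the 2-week difference. Of the 32 genes 0 passed by limma, and 8 were higher and 0 lower at an unadjusted p under 0.05, beside 0.0628% of all probe sets called higher and 0.0753% lower, and 1760 of 15934 in either direction at an unadjusted p under 0.05. The interaction was 1.72 ± 0.36 for Egln3 (limma adjusted p = 0.119), 0.97 ± 0.29 for Ndrg1 (0.273), 0.75 ± 0.21 for Ero1a (0.252), 0.72 ± 0.18 for Vegfa (0.182) and 0.70 ± 0.19 for Mxi1 (0.243). For these 5 genes the call at 8 weeks and its absence at 2 weeks are therefore not shown to differ. Egln3 passed in 1 of 23 other fits, that with array weights (limma adjusted p = 0.0489), and the adjusted p ranged up to 0.288 in the rest. Kdm3a (0.41 ± 0.16), Pfkfb3 (0.57 ± 0.23) and Slc2a3 (0.97 ± 0.40) were the other 3 at an unadjusted p under 0.05.

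Between 2 and 8 weeks within sham, Hk1 was higher and Pfkl lower, and the other 30 genes did not pass. This comparison uses the sham arrays already described. Hk1, the housekeeping hexokinase, was at 8.07, 7.86 and 8.52 at 2 weeks and 9.10, 8.94 and 8.88 at 8 weeks, a rise of 0.83 ± 0.17 (limma adjusted p = 0.00549). Pfkl, the liver phosphofructokinase, was at 5.77, 5.75 and 5.74 and then at 4.86, 4.83 and 4.86, a fall of 0.90 ± 0.07 (limma adjusted p = 2.84e-06). The background was high, with 12.5% of all probe sets called higher and 6.24% lower, and after added quantile normalization the counts were 1510 higher and 1362 lower in place of 1984 and 995.

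Within OA, 13 of the 32 genes were higher at 8 than at 2 weeks and 1, Pfkl, was lower, beside 21.7% of all probe sets higher and 12.4% lower. These are the same OA arrays, so the comparison adds no independent support. The 8 largest rises were Egln3 at 1.84 ± 0.26, Ndrg1 at 1.13 ± 0.20, Hk1 at 0.97 ± 0.17, Slc2a3 at 0.97 ± 0.28, Ero1a at 0.85 ± 0.15, Vegfa at 0.76 ± 0.12, Aldoc at 0.68 ± 0.19 and Slc2a1 at 0.62 ± 0.20. Egln3, Ndrg1, Hk1, Ero1a and Vegfa kept their calls whichever array was left out. Slc2a3 lost it without any of the 2-week OA arrays or without OA array 1 or 3 of 8 weeks, Aldoc without OA array 2 or 3 of 2 weeks or array 1 of 8 weeks, and Slc2a1 without 8 of the 12 arrays, all but sham arrays 2 and 3 of 2 weeks, OA array 2 and sham array 1 of 8 weeks. With the muscle level as a covariate 9 genes were higher, and Aldoc (0.53 ± 0.18, limma adjusted p = 0.0531), Mxi1, Pfkp and Pfkfb3 were not called. The count fell to 6 without OA array 2 of 2 weeks, 8 without OA array 3 of 2 weeks and 7 without OA array 1 or OA array 3 of 8 weeks. After added quantile normalization 2782 of all probe sets were higher and 2811 lower, in place of 3461 and 1969.

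Some dim probe sets moved between the times in OA and sham alike, and others, such as that of Hk2 (1.93 and 1.94 in sham), did not. The dim probe set of Mxi1 went from 2.73 to 3.92 in sham and from 2.77 to 4.10 in OA, that of Ero1a from 5.19 to 6.24 and from 5.24 to 6.35, and that of Pgk1 from 4.96 to 4.16 and from 4.96 to 4.31. The bright probe sets of Mxi1 and Pgk1 went from 11.77 to 11.51 and from 15.56 to 15.60 in sham. Among the 15108 probe sets under the filter, 24.5% were called between the times within sham and 0.0331% (5) between OA and sham at 8 weeks, in a fit without the filter. Their median absolute change within sham was 0.06, and 7.18% changed by more than 0.5. The time after surgery and any difference in the handling of the 2-week and 8-week arrays cannot be told apart, which touches every comparison between the times, Pfkl and Hk1 included.

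**Figure D5:**
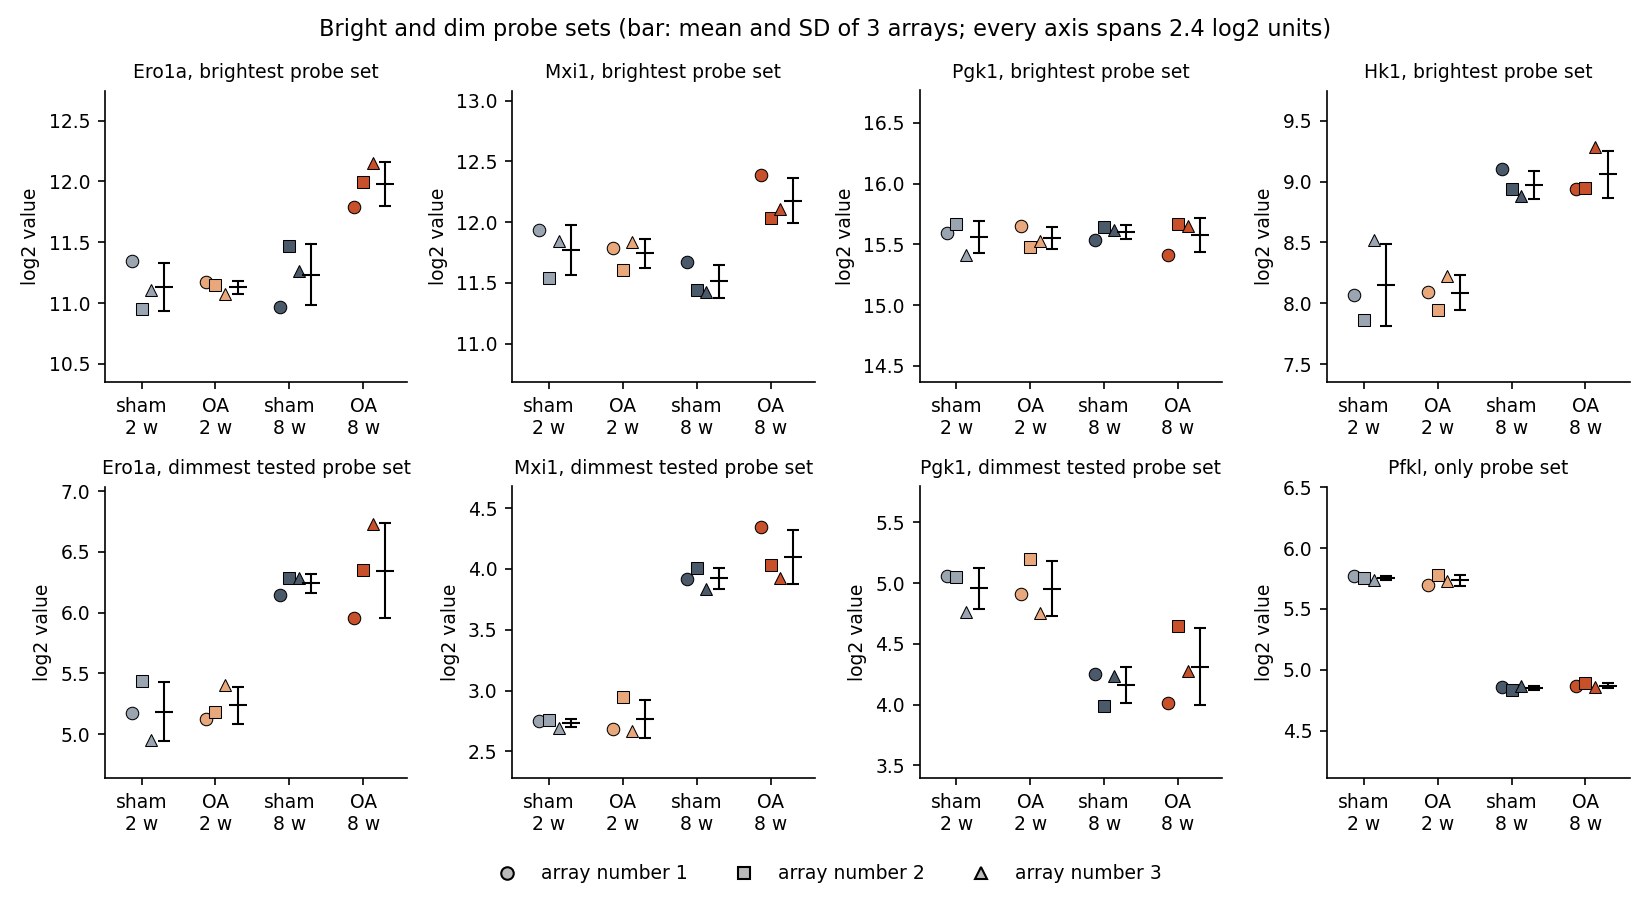
The vertical axes are log2 values of the 12 arrays, with the mean and SD of 3 arrays beside them, for the brightest probe sets of 4 genes and for dim probe sets of Ero1a, Mxi1, Pgk1 and Pfkl. The dim probe sets shown step between 2 and 8 weeks in sham and OA together, such as Pfkl from 5.76 to 4.85 in sham, while the OA arrays of the bright Ero1a and Mxi1 probe sets stand above sham at 8 weeks.

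The wider pathways were read from lists of other genes. Of 42 other HIF regulators and targets, 34 were tested, and at 8 weeks 3 (8.82%) were higher in OA, 0 lower, with a median of -0.09 (4 higher and 5 lower at an unadjusted p under 0.05). Of all probe sets, 1.51% were called higher and 1.95% lower. Tgfa, an epidermal growth factor receptor ligand, was at 12.21, 12.45 and 12.75 in OA and 9.43, 9.47 and 9.44 in sham, apart by 3.02 ± 0.15 (limma adjusted p = 2.58e-05). Stc2, a secreted stress-response glycoprotein, was higher by 1.24 ± 0.26 (limma adjusted p = 0.0356), and Pfkfb4, a relative of Pfkfb3, by 0.72 ± 0.17 (0.0494). Of 36 other genes of glycolysis and glycogen, 26 were tested, with a median of 0.08 (7 higher and 2 lower at an unadjusted p under 0.05). Beside the same shares of all probe sets, 2 (7.69%) were called higher and 0 lower. These were Slc16a7 (MCT2), a monocarboxylate transporter, at 0.83 ± 0.13 (limma adjusted p = 0.0127) and Gbe1, the glycogen branching enzyme, at 0.42 ± 0.09 (0.0397).

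Of these 5, Tgfa kept its call without any 1 array, and Slc16a7 lost it without sham array 2 (0.0505) or 3 (0.0548) of 8 weeks. Stc2 was called in 4 of the 12 fits, without OA array 2 or 3 or sham array 3 of 2 weeks or OA array 1 of 8 weeks. Gbe1 was called in 4, without OA array 2 or sham array 3 of 2 weeks or without array 1 of OA or sham of 8 weeks, and Pfkfb4 in 1, without sham array 1 of 8 weeks. With the replicate number as a block within each time, Stc2 (limma adjusted p = 0.0544) and Gbe1 (0.0540) were not called and the other 3 were, and with the muscle level as a covariate Tgfa alone of the 5 was called. At 2 weeks 0 genes of both lists passed by limma, with 0 and 1 at an unadjusted p under 0.05. The interaction was passed by Tgfa alone (2.92 ± 0.21, limma adjusted p = 0.00102). Between 2 and 8 weeks within sham, 3 of the 34 were higher (Arnt2 by 1.82 ± 0.13, Stc2 by 0.91 ± 0.26 and Trib3 by 0.59 ± 0.16) and Tgfa fell by 1.40 ± 0.15, and 0 of the 26 passed by limma, with 0 at an unadjusted p under 0.05. The 34 thus had 8.82% higher and 2.94% lower, beside 12.5% and 6.24% of all probe sets. Within OA, 7 were higher and 2 lower in each list. That is 20.6% and 5.88% of the 34 and 26.9% and 7.69% of the 26, beside 21.7% and 12.4% of all probe sets. The smallest p were those of Arnt2 (1.70 ± 0.13), Stc2 (1.64 ± 0.26), Tgfa (1.52 ± 0.15) and Trib3 (0.82 ± 0.16), and of Slc16a7 (1.02 ± 0.13), Eno2 (0.76 ± 0.11), Pdk3 (-0.55 ± 0.11) and Gbe1 (0.53 ± 0.09).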

How the data were processed

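The deposited values are log2 intensities that the authors made with GCRMA (background correction, normalization and summary per probe set), per the submitters' processing notes; its version is not given there, and the values were used as deposited. Gene symbols came from the array's annotation. Of 31099 probe sets, 20832 had 1 symbol, 436 several and 9831 none. The 57 control probe sets and 15108 with a log2 value over 4 in fewer than 3 arrays were left out.

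Group means of the 4 groups were estimated for 15934 probe sets with limma 3.58.1 (R 4.3.3; 8 residual and 1.94 prior degrees of freedom). The 5 comparisons were OA minus sham at each time, their difference, and 8 minus 2 weeks within sham and within OA, each Benjamini-Hochberg adjusted over all 15934. The script was tested on simulated data. Errors beside differences are standard errors, and intervals are unadjusted. A fold is 2 to the log2 difference.

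Genes described singly were those called in OA against sham or the interaction and, in each role, those with the smallest p at 8 weeks (1 or 2) and at 2 weeks (1); for the time comparisons up to 8 with the largest changes; and called genes of the 2 wider lists, up to 4 by p. Egln3's and Ldha's promoters and the genes under the closing observations were chosen after their values were seen. The members, gene lists (roles, wider pathways, and markers of chondrocytes, muscle, macrophages, endothelium, osteoclasts, osteoblasts and erythroid cells) and tests were chosen with earlier results of these data known.

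Replicate numbers come from the labels. Deviations of same-numbered OA and sham arrays from their group means correlated at 0.33, 0.36 and 0.53 at 2 weeks and 0.24, 0.24 and 0.12 at 8 weeks. At each time every sham array correlated best with the OA array of its own number, and the reverse was not checked. Across times the values were -0.50 to 0.24. The numbers were therefore taken to pair arrays within each time only. The main fit and the fits without 1 array did not use this pairing. A block of replicate number within each time was run as an alternative. Motif searches used Python 3.11.15, with tables in pandas 2.3.3 and figures in matplotlib 3.10.9 (numpy 2.4.6). Alternatives changed the filter, the normalization, the array weights, the variance model, the probe set per gene, the arrays used, the muscle level as a covariate and the replicate block.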

Additional observations from a re-analysis of the deposited data

Results flagged for a closer look

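The OA effect on Tgfa differed between the times by the interaction test: OA minus sham was 0.10 ± 0.15 at 2 weeks and 3.02 ± 0.15 at 8 weeks, an interaction of 2.92 ± 0.21 on the log2 scale (limma adjusted p = 0.00102). It passed in all 23 alternative fits of the interaction, with values from 2.78 to 3.18.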

How the results depend on the processing

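No called result changed direction under the alternatives run; sign changes of differences that were not called were not counted as reversals. The 5 genes higher at 8 weeks were 5 under a filter at log2 6, quantile normalization, equal array medians, array weights, a variance trend and the block of replicate number within each time (an alternative added after the numbers were checked). They were 4 without both number 1 arrays of 8 weeks, 3 without a filter and 3 with the probe set of largest variance. With the replicate number as a block across both times they were 3 (not called: Vegfa, limma adjusted p = 0.0518, and Ndrg1, 0.0587). They were 2 with the muscle covariate and 0 in the 6-array fit. That fit has fewer arrays. Its standard error was larger than in the main fit for Egln3, Ero1a and Vegfa, and smaller for Mxi1 and Ndrg1. Why the calls were lost was not tested. Leaving out 1 array gave 0 to 4, beside 47 to 405 of all probe sets called higher in place of 241. Over 24 alternatives Egln3 was called in 21, Ero1a in 19, Mxi1 in 16, and Ndrg1 and Vegfa in 9 each, with adjusted p from 0.0099 to 0.102, 0.0141 to 0.807, 0.0108 to 0.437, 0.0193 to 0.203 and 0.0125 to 0.174. The interaction had 1 gene higher with array weights. Within sham, the count lower was 0 under the filter at log2 6, which drops Pfkl, and the largest-variance probe sets gave 3 higher and 2 lower. Within OA, the counts higher were 8 in the 6-array fit, 7 without both number 1 arrays, 9 with the muscle covariate and 6 to 13 with 1 array left out; the counts lower were 0 under the filter at log2 6 and 2 with equal medians or the largest-variance probe sets. Other causes were not tested. Hk2 stayed under the filter and gives no result. The dim probe sets of Ero1a and Mxi1 gave 0.11 ± 0.19 and 0.18 ± 0.12 for OA minus sham at 8 weeks. Between the times within sham they changed by 1.05 and 1.19. Whether low values compress differences was not tested.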

Other observations

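The glycolysis and glycogen genes Pgam2, Pygm, Eno3 and Pfkm, isoforms typical of muscle that were chosen after their values were seen, were ordered like the muscle level within OA and within sham at 8 weeks, and none of the 4 passed in OA against sham. Aldoa, described above, was not ordered so within OA, at 14.43, 13.62 and 13.78. Pgam2 was at 13.47, 6.99 and 4.71 in OA arrays 1 to 3 and 6.24, 2.72 and 3.97 in sham (4.08 ± 1.79, limma adjusted p = 0.223). Pygm, the muscle glycogen phosphorylase, was at 13.74, 10.01 and 8.80 in OA and 8.96, 7.79 and 7.86 in sham (2.64 ± 0.99, limma adjusted p = 0.162). Eno3 was at 15.19, 11.57 and 10.67 in OA and 11.38, 10.48 and 10.84 in sham, and Pfkm at 12.98, 11.06 and 10.87 and at 10.98, 10.80 and 10.82. In each of these 4 genes OA array 1, the array with the highest muscle level, was the highest of the 6, and the array highest in sham was also number 1.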
